A study of Mus musculus with 12 samples.

Results

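Open chromatin was described here at Atoh1, Barhl1 and Barhl2, 3 transcription factor genes of the cerebellar granule neuron lineage, in cells sorted from mouse medulloblastoma. Every peak of 12 deposited lists was taken whose midpoint lay inside the span of one of the genes or within 150 kb of it (mm10). That gave 115 of 218906 peaks, which merged into 28 of 44242 regions where they overlapped by at least 1 bp. Atoh1 held 35 peaks in 6 regions, Barhl1 51 peaks in 14 regions and Barhl2 29 peaks in 8 regions. The last peak inside the limit lay 112.179 kb from the Atoh1 span, 142.296 kb from Barhl1 and 116.409 kb from Barhl2, and the next one beyond it at 160.337, 194.429 and 176.106 kb.

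The assay was ATAC-seq, in which a transposase cuts and tags accessible DNA. All cells came from untreated endpoint tumours of the sonic hedgehog (SHH) subgroup in Ptch1+/- mice, which carry a single working copy of the gene for the hedgehog receptor that restrains the pathway. The groups were SOX2+/MKI67+ cells (cycling stem-like cells, 2 libraries), SOX2+/MKI67- cells (non-cycling stem-like cells, 2 libraries), SOX2+ cells (4 libraries) and SOX2- cells (bulk tumour, 4 libraries). Sorting used eGFP for SOX2 and RFP for MKI67, and the labels do not state the alleles that drive these reporters or the age of the mice. Nor do they state whether replicates were separate animals or whether same-numbered libraries came from the same tumour. The p-values below therefore measure the spread between these libraries, which may be technical. Lists held 18738 to 24694 peaks in SOX2+/MKI67+ libraries, 17615 to 19229 in SOX2+/MKI67-, 9377 to 25272 in SOX2+ and 7009 to 26206 in SOX2- libraries. Peaks were called in each library alone and read depth is unknown, so a region that a library does not list may still have been accessible there, below the cutoff of the caller. The Sox2 window held more peaks in SOX2+ than in SOX2- libraries (log2 difference 1.86, adjusted p = 0.0213 by limma, and 0.0325 to 0.0813 when a single library was left out), while the Mki67 window differed by 0.46 between SOX2+/MKI67+ and SOX2+/MKI67- libraries (adjusted p = 1).

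ATOH1 is a basic helix-loop-helix factor that acts as a dimer with E proteins such as TCF3 and TCF12. In the embryonic rhombic lip it specifies granule neuron progenitors, and it holds them in the dividing state in which hedgehog signalling can give rise to SHH medulloblastoma. In mouse, Atoh1 is known to be kept active by an enhancer downstream of the gene that ATOH1 itself binds. BARHL1 and BARHL2 are homeodomain factors expressed downstream of ATOH1 in the mouse rhombic lip and dorsal spinal cord, and BARHL1 is needed for migration and survival of granule neurons.

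The RefSeq promoter windows (GRCm38.p6) are printed 5′ to 3′ on the strand of the gene. Each runs from 250 bases before the start to 50 bases from it. The regions at or beside the starts were listed in different sets of libraries. Capitals mark matches, on either strand, to the E-boxes CAGCTG and CAGATG, the GLI motif TGGGTGGTC, the SOX motifs ACAATGG and ACAAAG, and the BARHL homeodomain motifs TAATTG and TAAACG.
Atoh1, chr6:64728875-64729174, plus strand: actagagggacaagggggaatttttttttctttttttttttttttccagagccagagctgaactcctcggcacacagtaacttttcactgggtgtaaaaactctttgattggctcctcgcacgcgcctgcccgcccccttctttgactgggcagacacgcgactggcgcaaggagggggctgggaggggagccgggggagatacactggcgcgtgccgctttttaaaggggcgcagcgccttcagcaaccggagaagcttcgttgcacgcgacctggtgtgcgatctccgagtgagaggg
Barhl1, chr2:28916619-28916918, minus strand: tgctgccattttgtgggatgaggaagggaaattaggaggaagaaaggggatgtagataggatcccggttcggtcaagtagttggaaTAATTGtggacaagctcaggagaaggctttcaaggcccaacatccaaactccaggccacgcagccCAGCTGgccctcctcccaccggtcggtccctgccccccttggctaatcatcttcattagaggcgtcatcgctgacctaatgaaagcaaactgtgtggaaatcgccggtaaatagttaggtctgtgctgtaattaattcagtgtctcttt
Barhl2, chr5:106458117-106458416, minus strand: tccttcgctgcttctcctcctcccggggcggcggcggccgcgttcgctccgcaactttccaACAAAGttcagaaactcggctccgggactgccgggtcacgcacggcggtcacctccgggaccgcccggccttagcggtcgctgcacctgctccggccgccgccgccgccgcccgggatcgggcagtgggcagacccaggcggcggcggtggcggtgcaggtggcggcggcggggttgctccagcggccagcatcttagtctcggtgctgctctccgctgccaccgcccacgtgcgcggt
The Atoh1 window held none of these motifs. The printed Barhl1 window held TAATTG 164 bases and CAGCTG 99 bases before the start, the window of the second RefSeq start of Barhl1, which no peak overlapped, held them 62 and 15 bases before that start, and the Barhl2 window held ACAAAG 189 bases before it. TAATTG occurred in 8.0% of 32851 RefSeq promoter windows of the same length, CAGCTG in 16.3% and ACAAAG in 18.7%, so these are common words and a match is a description only. GC content was 56.7% at Atoh1, 50.3% at Barhl1 and 73.7% at Barhl2, against a median of 52.7% over all windows. A merged region covered all 300 bases of the Atoh1 window, 146 bases of the Barhl2 window and 110 bases of the printed Barhl1 window.

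Atoh1 had peaks in every SOX2+/MKI67+ and every SOX2- library, and in the SOX2+/MKI67- group in replicate 1 alone. Its window held 5 and 3 peaks in the SOX2+/MKI67+ libraries and 1 and 0 in the SOX2+/MKI67- libraries. It held 1, 0, 6 and 3 peaks in SOX2+ libraries 1 to 4 and 2, 6, 4 and 4 in SOX2- libraries 1 to 4. Both SOX2+/MKI67- libraries lay below every SOX2+/MKI67+ and every SOX2- library, and the SOX2+ libraries spread over the whole range, with replicate 3 as high as the highest SOX2- library.

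**Figure D1:**
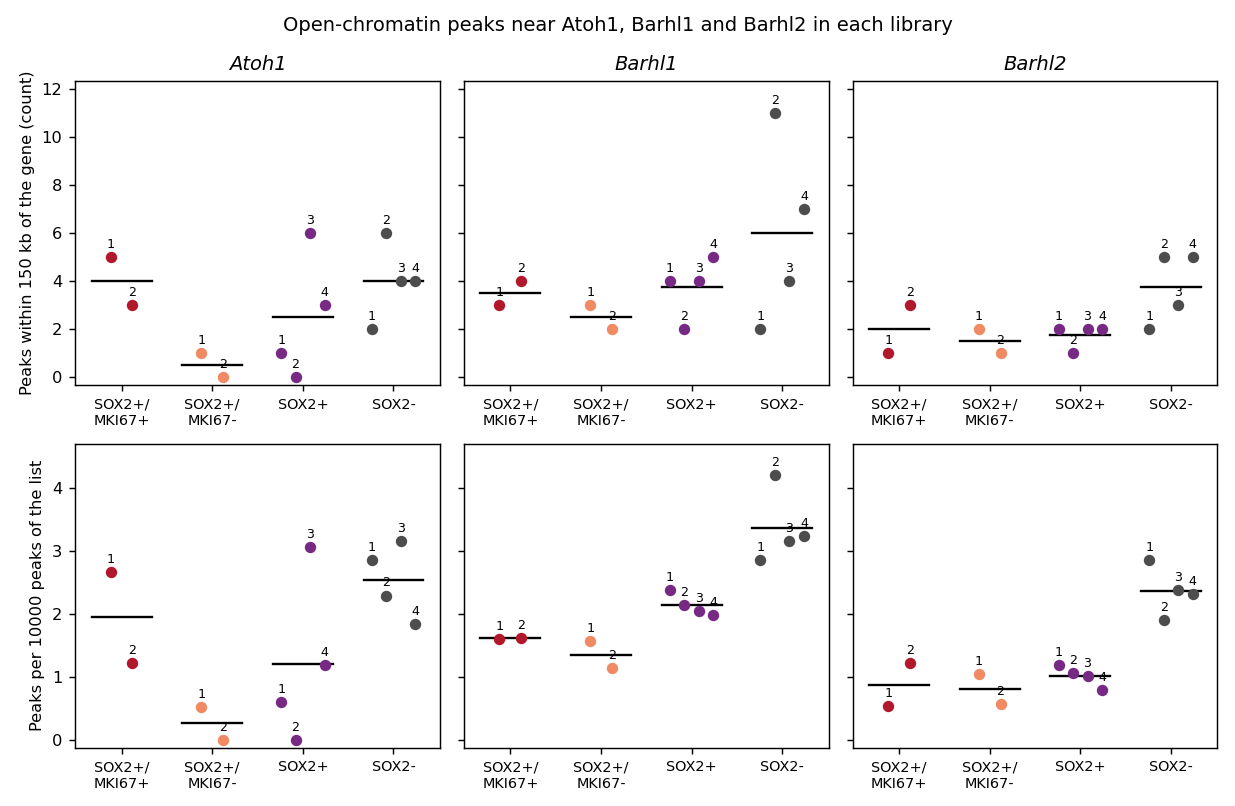
Peaks within 150 kb of each gene in each library, as counts (upper row) and per 10000 peaks of the library's list (lower row). Points are libraries with their replicate number and lines are group means. The SOX2+/MKI67- libraries held 1 and 0 peaks at Atoh1, and for Barhl1 and Barhl2 every SOX2+ library lay below every SOX2- library on the lower scale.

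The peak at the Atoh1 start (chr6:64728659-64729276), which also overlaps the long noncoding RNA gene Gm35851, was listed in 2 of 2 SOX2+/MKI67+ libraries, 0 of 2 SOX2+/MKI67- libraries, 2 of 4 SOX2+ libraries and 4 of 4 SOX2- libraries. Its fold over local background, the authors' value at the summit, was 3.22 and 3.47 in SOX2+/MKI67+ libraries and 3.505 and 3.12 in SOX2+ libraries 3 and 4. In SOX2- libraries 1 to 4 it was 3.44, 3.84, 2.78 and 4.01. By score it stood at the 59.3, 74.5, 25.8 and 83.9 percentile of the list in SOX2- libraries 1 to 4. It stood at the 37.6 and 43.9 percentile in SOX2+/MKI67+ libraries and at the 58.4 and 8.38 percentile in SOX2+ libraries 3 and 4. Folds and percentiles belong to each list and were not tested between lists.

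The most often listed peak of the locus lay 5.478 kb downstream of the start, beyond the end of the gene, whose span is 2121 bp (chr6:64734220-64734987). No gene of the table spans it, and it was not compared with the mapped position of the known enhancer. It was listed in 2 of 2 SOX2+/MKI67+ libraries (fold 4.44 and 4.22), 0 of 2 SOX2+/MKI67- libraries, 3 of 4 SOX2+ libraries (3.45, 4.92 and 4.62 in replicates 1, 3 and 4) and 4 of 4 SOX2- libraries (3.94, 5.27, 4.58 and 4.40). In each of these 9 libraries its fold was the highest of any peak in the Atoh1 window. By score it stood above 73.3% to 85.9% of the peaks of its own list in the SOX2- libraries, and SOX2+ replicate 1 had it at the 18.3 percentile of its list.

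Of the remaining Atoh1 regions, those described here were less regular. A region 1.169 kb upstream of the start, within Gm35851, was listed in 1 of 2 SOX2+/MKI67+ libraries, 0 of 2 SOX2+/MKI67- libraries, 1 of 4 SOX2+ libraries and 3 of 4 SOX2- libraries. The region 70.412 kb downstream was the single Atoh1 region listed in a SOX2+/MKI67- library, in replicate 1 with a fold of 4.35, and it was listed in 1 SOX2+/MKI67+, 2 SOX2+ and 2 SOX2- libraries as well. The region 112.179 kb upstream was listed in SOX2+ replicate 3 and SOX2- replicate 2, the libraries that held all 6 Atoh1 regions.

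**Figure D2:**
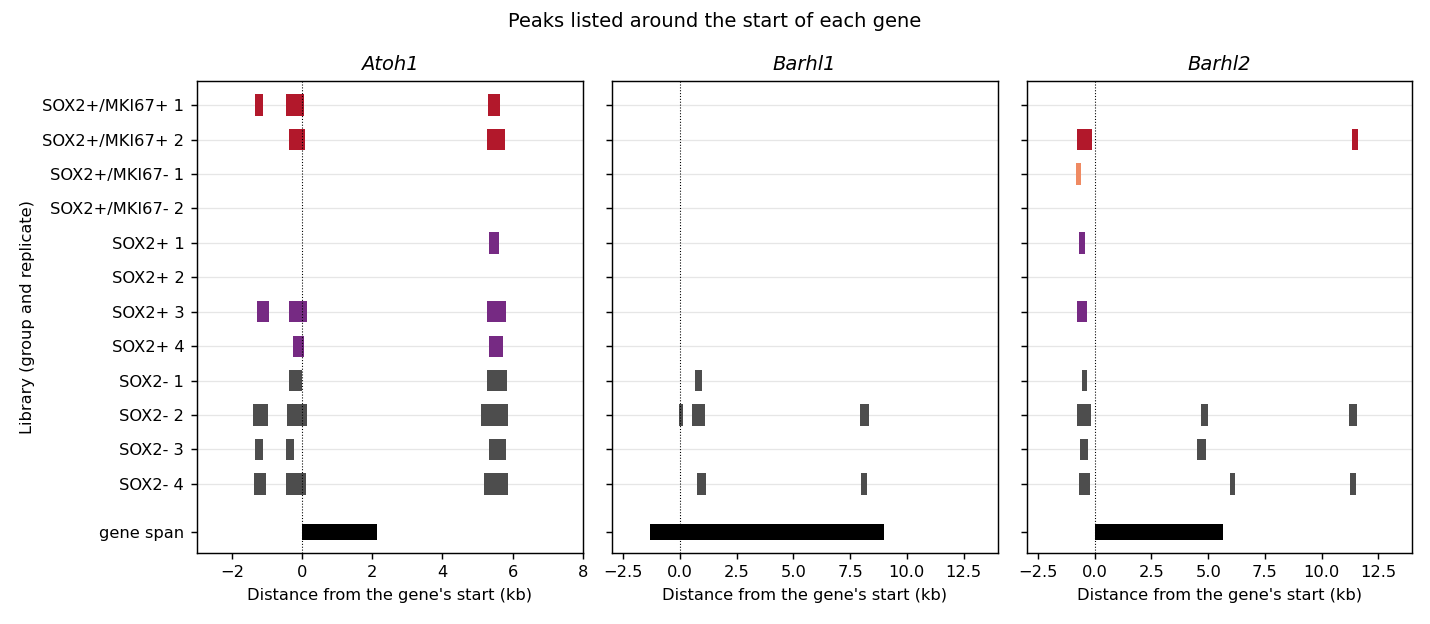
Peaks listed around the start of Atoh1, Barhl1 and Barhl2 in each of the 12 libraries (rows), by distance from the gene's start in kb (minus is upstream). Coloured bars are peaks to scale and the black bar is the gene span. The Atoh1 start and the region 5.478 kb downstream were listed in all 4 SOX2- and both SOX2+/MKI67+ libraries and in neither SOX2+/MKI67- library, and within the Barhl1 span SOX2- libraries alone had peaks.

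Both the start and the downstream region followed one pattern, listed in 4 of 4 SOX2-, 2 of 2 SOX2+/MKI67+ and 0 of 2 SOX2+/MKI67- libraries, which 0.411% of all merged regions shared. The pattern was set after these regions were seen and leaves out the SOX2+ group, where they were listed in 2 and 3 libraries. Its share is therefore a description only. Counting only the MKI67 sort, 3 regions were listed in both SOX2+/MKI67+ libraries and neither SOX2+/MKI67- library, and all of them lay at Atoh1, while 4.03% of all merged regions met this rule. The reverse, both SOX2+/MKI67- libraries and neither SOX2+/MKI67+ library, held for 0 of the 28 regions and 0.972% of all. An exact test of a region over 2 libraries against 2 cannot give a p below 0.333. When each list was cut to its 7009 highest-scoring peaks, the length of the shortest list, the start was listed in 3 SOX2- libraries and in no SOX2+/MKI67+, SOX2+/MKI67- or SOX2+ library. The downstream region then remained in 1 SOX2+/MKI67+, 0 SOX2+/MKI67-, 1 SOX2+ and 4 SOX2- libraries.

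Peaks per window were tested across 19285 genes with limma on log2(peaks + 1), with the 4 groups and the log10 length of each list in the fit. The Atoh1 difference between SOX2+/MKI67+ and SOX2+/MKI67- libraries was 1.59 (SE 0.605, unadjusted p = 0.0262, adjusted p = 1). It was higher than that of all but 6 of the genes tested, yet 0% of genes passed in this comparison, where 709 had an unadjusted p under 0.05. With equal peak numbers the difference was 0.50 (unadjusted p = 0.221), and with the higher-scoring part of each list, above its median score, 0.93 (unadjusted p = 0.154). Against SOX2- libraries the Atoh1 difference was -2.02 for SOX2+/MKI67- libraries (SE 0.529, adjusted p = 0.102), with 9 genes lower still, and -0.43 for SOX2+/MKI67+ libraries (adjusted p = 0.853). Per 10000 peaks, Atoh1 separated the MKI67 groups without overlap, as did 12.8% of genes in that direction, and both SOX2+/MKI67- libraries lay below all 4 SOX2- libraries, as for 8.45% of genes. The comparisons with SOX2- share those libraries and set cells of one sort against cells of another.

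Between SOX2+ and SOX2- libraries Atoh1 did not pass the test. The limma difference was -0.95 (SE 0.428, adjusted p = 0.294), and the window held 1.21 ± 1.32 peaks per 10000 in SOX2+ libraries and 2.54 ± 0.585 in SOX2- libraries (SD, n = 4 each; two-sided exact permutation p = 0.143). Replicate 3 of the SOX2+ group, with 3.06 peaks per 10000, was the library that overlapped the SOX2- range. Without replicate 3 the difference was -1.94 with an exact permutation p of 0.0286, the smallest that 3 libraries against 4 allow. That p follows from leaving out the library that overlapped, so it adds no support. The limma adjusted p without replicate 3 was 0.103. Without SOX2+ replicate 2 the limma difference was -0.57 (adjusted p = 0.590), and without both of the shortest lists (SOX2+ replicate 2 and SOX2- replicate 1), a choice made after the data were seen, it was -0.58 (adjusted p = 0.597). With equal peak numbers the limma difference was -1.33 (adjusted p = 0.0459), where 0.77% of genes were called lower.

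Barhl1 differed most in the narrower windows around the gene, which also take in part of the neighbouring gene Ddx31. The window of 150 kb held 3 and 4 peaks in SOX2+/MKI67+ libraries, 3 and 2 in SOX2+/MKI67- libraries, 4, 2, 4 and 5 in SOX2+ libraries and 2, 11, 4 and 7 in SOX2- libraries. As counts the groups overlapped. Per 10000 peaks of the list the window held 2.13 ± 0.178 peaks in SOX2+ libraries and 3.36 ± 0.582 in SOX2- libraries (SD, n = 4 each), every SOX2+ library was below every SOX2- library, and the exact permutation p was 0.0286, the smallest possible. Of all genes tested, 1.56% showed this separation in the same direction. Without SOX2+ replicate 4 the groups differed by -1.18 with an exact permutation p of 0.0571, and with equal peak numbers by -0.713 with an exact permutation p of 0.657. Among peaks with a score above the median of their list the difference was 1.03 (exact permutation p = 0.371).

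Many peaks of the Barhl1 window belong to the starts of neighbouring genes. The divergent start of Gtf3c4, a subunit of a transcription factor of RNA polymerase III, and Ddx31, an RNA helicase gene, 76.256 kb away (chr2:28839999-28840825), was listed in all 12 libraries with folds of 3.25 to 5.38. The start of Ttf1, a termination factor of RNA polymerase I, at the far edge (chr2:29059989-29060570), was listed in 2 of 2 SOX2+/MKI67+, 2 of 2 SOX2+/MKI67-, 4 of 4 SOX2+ and 2 of 4 SOX2- libraries. A region in Ak8, an adenylate kinase gene, was listed in 2, 1, 3 and 1 libraries in the same order, and the start of Cfap77, a cilia gene, in 1, 0, 2 and 0. These regions were present at least as often in the SOX2+ as in the SOX2- libraries, and they count in the window of Barhl1. A separate region 162 bp from the Cfap77 start was listed in SOX2- replicate 3 alone.

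A window of 50 kb around the gene takes in the Barhl1 span and also the regions within Ddx31 described below. Folds in it reached 3.22 within the Barhl1 span and 6.98 within Ddx31. In this window, Barhl1 held 0 peaks in each of the SOX2+/MKI67+ and SOX2+/MKI67- libraries. It held 0, 0, 1 and 1 peaks in the SOX2+ libraries and 1, 5, 2 and 5 in the SOX2- libraries. The difference between SOX2+ and SOX2- libraries by limma was -1.57 in this window (adjusted p = 0.0137, 0.0958% of genes called lower), -1.21 in a window of 100 kb (adjusted p = 0.0184, 0.266% called lower) and -0.56 in the window of 150 kb (SE 0.129, adjusted p = 0.0850, 0.135% called lower), so the call depends on the width. When only the higher-scoring part of each list was kept, with a score above the list's median, the sign turned to 0.39 (150 kb window).

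Against SOX2- libraries, Barhl1 fell by 1.10 on the log2 scale in SOX2+/MKI67- libraries (SE 0.159, adjusted p = 0.0458 by limma), in a comparison in which 0.13% of genes were called lower and 0.213% higher. Leaving out a single library gave adjusted p-values of 0.0448 to 0.293, and the call was lost without any one library other than SOX2+ replicate 2 or SOX2+ replicate 3. For SOX2+/MKI67+ libraries the difference was -0.93 (adjusted p = 0.194) at 150 kb and -2.37 (adjusted p = 0.00665, 0.0225% called lower) at 50 kb. SOX2+/MKI67+ and SOX2+/MKI67- libraries differed by 0.17 (adjusted p = 1).

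Within the Barhl1 span, 3 regions were listed, and none of them outside the SOX2- group. The region 0.846 kb downstream of the start (chr2:28915528-28916116) was listed in SOX2- libraries 1, 2 and 4 with folds of 3.05, 2.80 and 3.21. The region over the start itself, which overlaps the printed promoter, was listed in SOX2- replicate 2 alone (fold 2.72), and the region 8.132 kb downstream in SOX2- libraries 2 and 4. Relative to the start used here the Barhl1 span runs from -1316 to 8988 bp, and its upstream part held no further region. No region overlapped the promoter window of the second RefSeq start. The downstream flank, within Ddx31, held 3 further regions. The nearest, at 33.656 kb, was listed in 1 SOX2+ and 1 SOX2- library. One at 55.447 kb (chr2:28860966-28861477) was found in none of the 4 SOX2+ lists and in 3 of the 4 SOX2- lists, with folds of 4.21, 3.04 and 5.13 in SOX2- replicates 2, 3 and 4. Another, at 49.066 kb (chr2:28867285-28867919), reached folds of 6.98, 3.41 and 5.36 in the same libraries and 3.19 in SOX2+ replicate 3. None of the 3 was listed in a SOX2+/MKI67+ or SOX2+/MKI67- library. The 4 regions between 57.345 and 138.075 kb upstream, all within Cfap77, were each listed in 1 SOX2- library and in no other. Fisher's exact test of 3 of 4 against 0 of 4 libraries gave a two-sided p of 0.143, which does not pass.

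**Figure D3:**
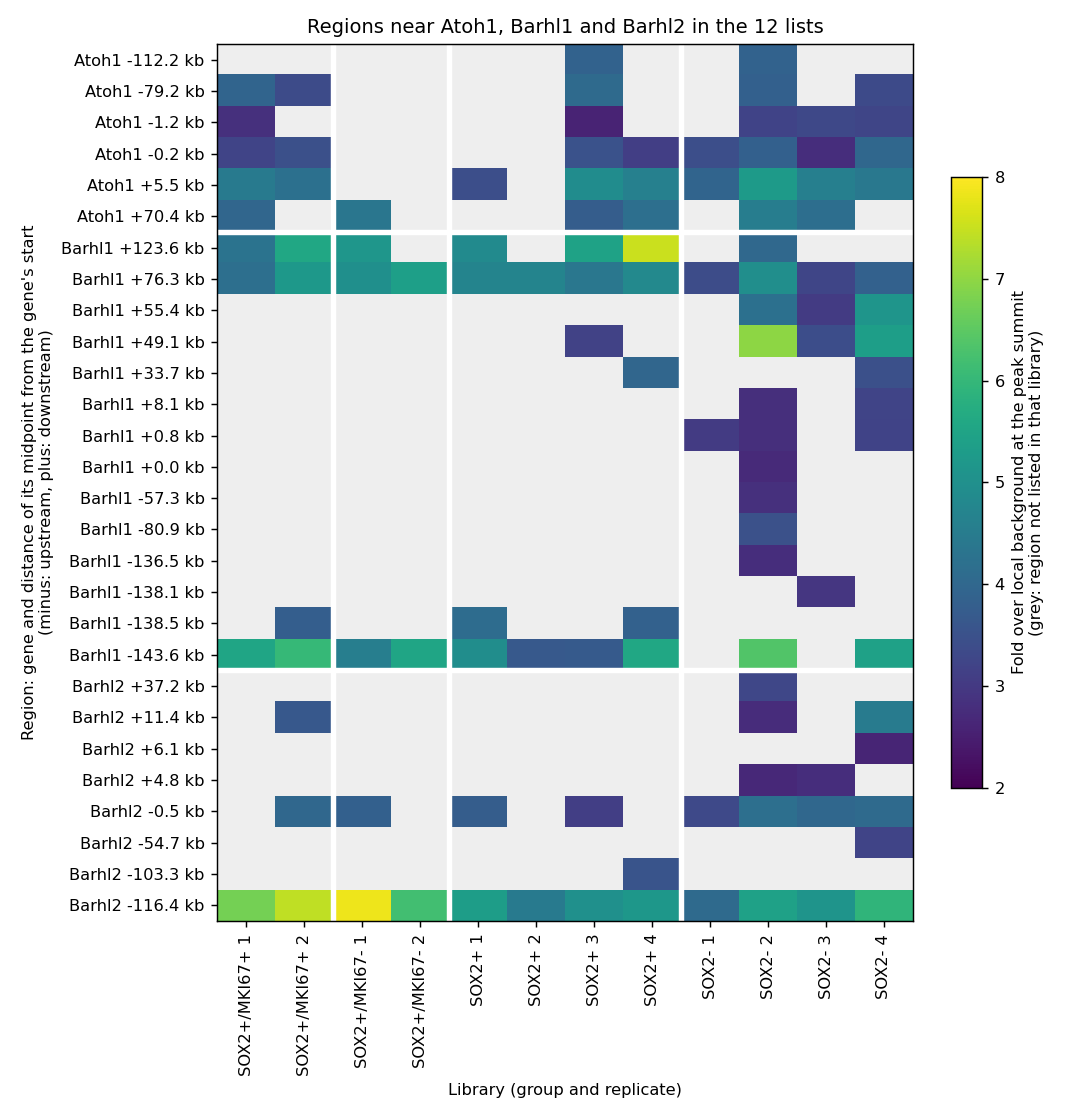
The 28 regions (rows, by gene and distance from its start in kb) in the 12 libraries (columns), coloured by the authors' fold over local background at the summit. Grey cells are regions missing from that library's list. The rows within the Barhl1 span were filled in SOX2- libraries alone. The row 0.462 kb upstream of the Barhl2 start was filled in 1 SOX2+/MKI67+, 1 SOX2+/MKI67-, 2 SOX2+ and 4 SOX2- libraries. The region 116.408 kb upstream of Barhl2 was filled in all 12, and the Atoh1 rows were nearly empty in SOX2+/MKI67-.

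Barhl2 had fewer peaks in SOX2+ than in SOX2- libraries for the length of their lists. Its window held 1 and 3 peaks in SOX2+/MKI67+ libraries, 2 and 1 in SOX2+/MKI67- libraries, 2, 1, 2 and 2 in SOX2+ libraries and 2, 5, 3 and 5 in SOX2- libraries. Per 10000 peaks this was 1.02 ± 0.167 in SOX2+ libraries and 2.36 ± 0.388 in SOX2- libraries (SD, n = 4 each), with no overlap and an exact permutation p of 0.0286, the smallest possible, and 1.56% of genes separated in this way. With equal peak numbers the difference was -1.07 (exact permutation p = 0.286). The limma difference was -0.84 (SE 0.189, adjusted p = 0.0804), which did not pass. Against SOX2- libraries it was -0.99 for SOX2+/MKI67+ libraries (adjusted p = 0.267) and -1.07 for SOX2+/MKI67- libraries (adjusted p = 0.0851), and between the MKI67 groups it was 0.08 (adjusted p = 1).

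The peak beside the Barhl2 start (chr5:106458271-106458985, 0.462 kb upstream) overlaps the start of the long noncoding RNA gene Gm33151. It was listed in 1 of 2 SOX2+/MKI67+, 1 of 2 SOX2+/MKI67-, 2 of 4 SOX2+ and 4 of 4 SOX2- libraries. The folds were 4.01 in SOX2+/MKI67+ replicate 2, 3.83 in SOX2+/MKI67- replicate 1, 3.77 and 3.11 in SOX2+ replicates 1 and 3, and 3.33, 4.20, 3.99 and 4.07 in the SOX2- libraries. With equal peak numbers it remained in 2 SOX2- libraries and in no other.

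A region 116.408 kb upstream of Barhl2 (chr5:106574182-106574967) was listed in all 12 libraries, as were 12.2% of merged regions. Its folds were 6.76 and 7.43 in SOX2+/MKI67+ libraries, 7.85 and 6.17 in SOX2+/MKI67- libraries, 4.46 to 5.33 in SOX2+ libraries and 4.06 to 5.92 in SOX2- libraries. It overlaps the annotated RNA gene Gm8350 and lies 33202 bp from the nearest annotated start. With equal peak numbers it was listed in 2 SOX2+/MKI67+, 2 SOX2+/MKI67-, 3 SOX2+ and 4 SOX2- libraries. For the peak beside the start the two-sided Fisher's exact p between SOX2+ and SOX2- libraries was 0.429, and the distant region was listed equally in both groups.

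The other 6 Barhl2 regions were each listed in at most 3 libraries. Inside the gene, the region 4.754 kb from the start was listed in SOX2- libraries 2 and 3 alone, with folds no higher than 2.79. The region 11.383 kb downstream was listed in SOX2+/MKI67+ replicate 2 and in SOX2- libraries 2 and 4.

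Over the 3 genes together, the 28 regions were listed 19 times in the 2 SOX2+/MKI67+ libraries, 9 times in the 2 SOX2+/MKI67- libraries, 32 times in the 4 SOX2+ libraries and 55 times in the 4 SOX2- libraries. Of the 28 regions, 19 were listed in fewer SOX2+ than SOX2- libraries, against 33.9% of all merged regions, and 12 were listed in SOX2- libraries alone, against 21.9%. Of these 12 regions, 8 were listed in 1 library and 4 in 2 or more. SOX2- replicate 2, with the longest list, held 6 Atoh1, 11 Barhl1 and 5 Barhl2 regions. Under the rule of at least 3 of 4 libraries in one group and 0 in the other, 2 regions were exclusive to SOX2-, both at Barhl1, against 1.54% of all regions, and 0 to SOX2+, against 4.1%. The count for SOX2- ranged from 2 to 5 when single libraries were left out. Omitting SOX2+ replicate 3 or SOX2- replicate 3 gave 4, omitting SOX2- replicate 4 gave 3, and omitting SOX2- replicate 1 gave 5, as did omitting both of the shortest lists (SOX2- replicate 1 and SOX2+ replicate 2), a choice made after the data were seen.

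**Figure D4:**
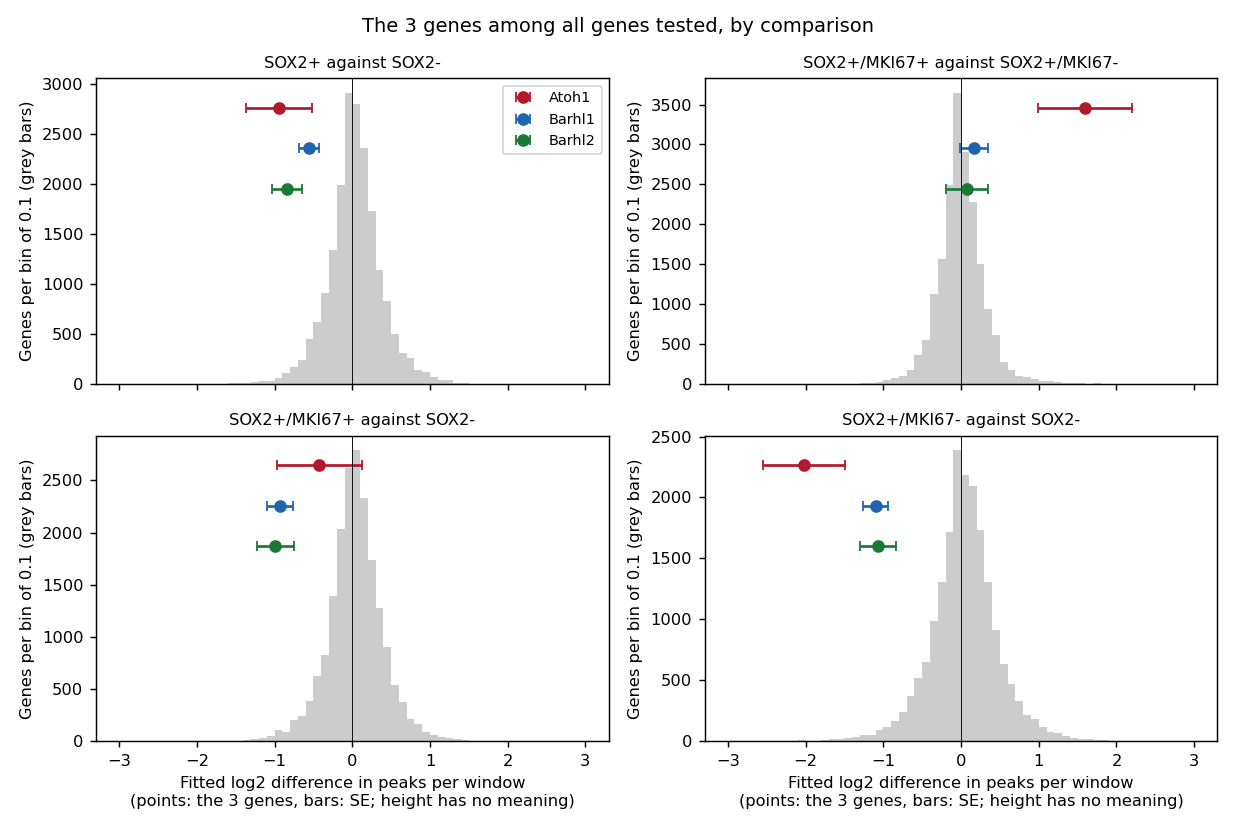
Fitted log2 differences in peaks per window for all 19285 genes (grey histogram, genes per bin) in 4 comparisons, with Atoh1, Barhl1 and Barhl2 as points and their SE as bars. Atoh1 lies at 1.59 in SOX2+/MKI67+ against SOX2+/MKI67- and at -2.02 in SOX2+/MKI67- against SOX2-, and all 3 genes lie below 0 in SOX2+ against SOX2-.

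Genes around ATOH1 were read from 5 lists of 49 genes, and all were tested. Windows of neighbouring genes overlap, so a single peak can count for several genes. None of the 3 E protein genes that pair with ATOH1 passed in any of the 4 comparisons, and their median difference between SOX2+ and SOX2- libraries was -0.0045, against 0.0276 over all genes. Of the 8 factors that restrain Atoh1 or its protein, 0 passed. The smallest p among them was that of Hes1, a Notch target and repressor of Atoh1, whose window held 5.75 ± 2.63 peaks in SOX2+ libraries and 3.0 ± 2.45 in SOX2- libraries (SD, n = 4 each; log2 difference 0.75, adjusted p = 0.0772). Hey1, with the next smallest p, went the other way (log2 difference -0.90, adjusted p = 0.124 by limma). Between SOX2+ and SOX2- libraries 2 of the 8 differences were negative, and the median of the list was 0.249.

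Of 18 rhombic lip and granule progenitor factors, 1 fell in SOX2+ against SOX2- libraries and 0 rose, with 0.135% of all genes called lower and 0.446% higher, and 13 of the 18 differences were negative, against 45.6% of all genes. The gene was Nfia, a nuclear factor I gene active in granule neuron maturation (log2 difference -0.51, adjusted p = 0.0499 by limma; 0.0664 to 0.132 when any one library was left out), and the next was its paralogue Nfib (-0.86, adjusted p = 0.0760). Against SOX2- libraries, SOX2+/MKI67- libraries had fewer peaks at Zic2 and Zic5, neighbouring zinc finger genes of the granule lineage whose windows gave identical counts. The windows held 1.5 ± 0.707 peaks in SOX2+/MKI67- libraries (n = 2) and 8.75 ± 3.40 in SOX2- libraries (n = 4), a log2 difference of -2.13 (adjusted p = 0.0458 by limma), and 0.13% of all genes were called lower in this comparison. Only without SOX2+ replicate 3 did this call hold when a library was left out, with adjusted p-values of 0.0407 to 0.293. In SOX2+/MKI67+ libraries they held 7.0 peaks in each, and the difference to SOX2+/MKI67- was 1.54 (SE 0.347, unadjusted p = 0.00144, adjusted p = 0.993). The median of the list in this MKI67 comparison was 0.29, against -0.0158 over all genes, and 4 of its 18 differences were negative, against 52.9% of all genes. Both tallies count the identical Zic2 and Zic5 windows separately.

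Among 8 genes known as ATOH1 targets in mouse cerebellum or spinal cord, 0 passed in each comparison. Between SOX2+ and SOX2- libraries 6 of the 8 differences were negative, against the same 45.6% of all genes, with the smallest p-values at Nhlh1, a helix-loop-helix gene of early neurons (-0.40, adjusted p = 0.0984), and Gli2, an effector of hedgehog signalling (-0.94, adjusted p = 0.135). Rab15, a vesicle traffic gene, held 8.0 ± 2.83 peaks in SOX2+/MKI67+ libraries and 3.5 ± 0.707 in SOX2+/MKI67- libraries (SD, n = 2 each; log2 difference 0.73, adjusted p = 0.993). Among 12 genes of granule neuron differentiation 0 passed. Between SOX2+ and SOX2- libraries 8 of the 12 differences were negative. The median of the list was -0.074, against 0.0276 over all genes. The smallest p-values in this comparison were at Reln, the secreted protein of granule neurons (-1.54, adjusted p = 0.0941), and Neurod1, a factor of their differentiation (-1.34, adjusted p = 0.209).

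Marker genes of other cell types and of the granule lineage were summed in each library. Over 8 granule neuron progenitor markers, Atoh1 and Barhl1 among them, the windows held 19.8 to 23.5 peaks per 10000 in SOX2+/MKI67+ libraries, 15.3 to 16.6 in SOX2+/MKI67- libraries, 15.5 to 24.4 in SOX2+ libraries and 25.7 to 30.8 in SOX2- libraries. Without Atoh1 and Barhl1, the other 6 gave 19.2 and 17.0 in SOX2+/MKI67+ libraries, 14.6 and 14.2 in SOX2+/MKI67- libraries, 12.5, 14.9, 19.4 and 13.5 in SOX2+ libraries 1 to 4, and 19.97, 22.1, 24.5 and 21.7 in SOX2- libraries 1 to 4. SOX2+ replicate 3, which had all 6 Atoh1 regions, was also the highest SOX2+ library by these 6 genes. Of the 8 markers, Boc, a hedgehog co-receptor, passed and fell in SOX2+ against SOX2- libraries (-0.81, adjusted p = 0.0469 by limma), where 0.135% of all genes were called lower. That call too held only without SOX2+ replicate 3 among the fits that left out a library (adjusted p = 0.0365 to 0.132).

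The 7 oligodendrocyte lineage markers summed to 28.3 to 32.8 peaks per 10000 in SOX2+/MKI67+ libraries, 31.2 to 38.0 in SOX2+/MKI67- libraries, 26.0 to 37.3 in SOX2+ libraries and 8.56 to 21.8 in SOX2- libraries. Astrocyte markers, 6 genes, gave 19.7 to 21.1, 16.6 to 18.7, 9.60 to 18.5 and 8.56 to 14.3 in the same order, and 6 stem and radial glia markers gave 12.96 to 15.5, 13.5 to 17.6, 12.3 to 14.9 and 8.76 to 11.4. The stem list contains Sox2, the gene of the sort, with 5.75 ± 2.06 peaks in SOX2+ and 0.75 ± 0.5 in SOX2- libraries (SD, n = 4 each). The stem sum is thus not independent of the sort, and a sum without Sox2 was not taken. Of the 6 stem differences between SOX2+ and SOX2- libraries, 2 were negative. Microglia and macrophage markers (6 genes) gave 19.2 to 21.5, 22.4 to 23.3, 19.4 to 23.5 and 16.0 to 27.1, and endothelial and mural markers (5 genes) 10.9 to 11.2, 11.9 to 13.5, 7.47 to 12.2 and 9.54 to 11.1. Markers with no peak in any library of a group were Sox9 in SOX2+/MKI67-, Aqp4 in SOX2-, and Kdr in SOX2+/MKI67+ and SOX2+/MKI67-. In the SOX2 comparison 0 of the 7 oligodendrocyte, 6 astrocyte, 6 microglia and 5 endothelial markers passed, and Sox2 was the 1 stem marker that did. In such bulk libraries a smaller share of granule lineage cells and a less open locus per cell cannot be told apart, and the part of these cell types in the results at Atoh1, Barhl1 and Barhl2 was not tested.

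The genes whose counts across the 12 libraries were most like those of each gene were found by the sum of absolute differences in peaks per window, over genes that shared no region with it. For Atoh1 these were Ehbp1 on chromosome 11 (sum 6), Crybb2 on chromosome 5 (8) and Epha3 on chromosome 16 (8). For Barhl1 they were Chd1 (6), Olfr765 (6) and Ezr (8), and for Barhl2 Iltifb (3), Fabp1 (4) and Dynlt1f (5). With counts this small a low sum is easily reached, and these names are a description only.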

How the data were processed

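ATAC-seq peak lists of 12 libraries were analysed. Reads were single-end, 50 bp, from 35000 to 50000 sorted cells, per the labels' protocols, and per the submitters' processing notes they were aligned to mm10 with Bowtie2 and peaks were called with MACS2. Versions, thresholds, duplicate handling and the transposase offset are not given in the sources used here. Each deposited list gives a score, a fold ratio over local background, a -log10 p-value and a -log10 q-value per peak, made by the authors in each library alone, and the summit position. Scores were used only to rank peaks within a list.

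The number of peaks per gene window (gene span and 150 kb to each side, 21631 protein-coding genes of GRCm38.p6) was fitted with limma 3.58.1 in R 4.3.3 on log2(peaks + 1), over all 12 libraries, with 4 groups and the log10 list length. The 19285 genes whose window had a peak in 2 or more libraries were tested, and an adjusted p (Benjamini and Hochberg) under 0.05 was the threshold. The pseudocount understates differences at low counts. Neither fit nor lists replace read counts, so read depth is unknown and list length stood in for it. Single genes were also compared per 10000 peaks by two-sided exact permutation tests. With 4 libraries against 4 the smallest p is 0.0286, with 2 against 4 it is 0.0667 and with 2 against 2 it is 0.333. Regions were compared by the libraries that list them. On simulated counts the fit recovered 51 of 100 genes changed 4-fold and 87 of 100 changed 8-fold between SOX2+ and SOX2-, and 25 and 63 between the MKI67 groups, with 3 false calls in each comparison. These counts were drawn independently (Poisson) around means proportional to list length. Further spread between real libraries was not simulated, so recovery in the data may be lower.

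The genes, gene lists and marker lists were chosen with earlier results of these data known. The 3 genes and their regions were eligible to be named, and the single values of one region are not reported here. Of the gene lists, genes that passed or had the smallest p-values were eligible to be named. Alternatives were another pseudocount, other low-value filters, equal peak numbers, the higher-scoring part of each list, windows of 100 and 50 kb, the nearest gene, no list length term, the compared groups alone, a replicate block, other overlap rules and leaving out each library.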

Additional observations from a re-analysis of the deposited data

Results flagged for a closer look

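Among the SOX2+ libraries, the Barhl2 window held 1 peak in replicate 2 and 2 peaks in each of the other libraries, and a gap rule on groups of 4 values picked out replicate 2. With the other values tied, any difference of 1 peak meets that rule, so it carries no information about this library. Its list was the shortest of the group, with 9377 peaks, and per 10000 peaks it held 1.07, inside the range of 0.791 to 1.19 of the SOX2+ libraries. This was the single library of this kind among 12 sets of values examined (counts and counts per 10000 peaks of the same libraries). The chance rate of this rule, about 1 in 20, is for values without ties and does not apply to such counts.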

How the results depend on the processing

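The Atoh1 differences were negative in all 24 alternatives for SOX2+ against SOX2- (-1.34 to -0.57) and positive in all 24 for SOX2+/MKI67+ against SOX2+/MKI67- (0.50 to 2.08). Those of Barhl2 were negative in all 24 for SOX2+ against SOX2-. Neither gene passed in these fits except Atoh1 with equal peak numbers (-1.33). The calls of Nfia, Boc and Sox2 between SOX2+ and SOX2- were lost in 20, 21 and 13 of 24 alternatives, the replicate block among them, and that of Zic2 between SOX2+/MKI67- and SOX2- in 16 of 23. Where a value below changed, the cause was not tested.

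Genes called between SOX2+ and SOX2- numbered 112 in the fit as reported, 60 with no filter on low values, 331 with equal peak numbers, 65 with the higher-scoring part of each list, 196 with 100 kb, 3 without list length, 0 with the compared groups alone, 34 without the shortest lists and 0 to 84 when leaving out single libraries. Same-numbered libraries did not deviate together throughout (correlations of 0.0655, 0.448, 0.0744 and -0.201 among SOX2+ and SOX2- libraries 1 to 4, and 0.0924 between the MKI67 groups, list length removed). Whether same-numbered libraries came from the same tumour is not stated, and these correlations cannot decide it. The replicate block gave 0 called genes (3302 at an unadjusted p under 0.05). For the MKI67 groups the count was 0, and 2 with no filter, 62 with equal peak numbers, 10 with 50 kb and 30 with the nearest gene. For SOX2+/MKI67+ against SOX2- it was 0, and 7 with no filter, 138 with equal peak numbers, 30 with the higher-scoring part, 10 with 100 kb, 34 with 50 kb, 75 with the nearest gene, 20 without the shortest lists and 0 to 1 leaving out single libraries. For SOX2+/MKI67- against SOX2- it was 66, and 268 with equal peak numbers, 135 with 100 kb, 113 with 50 kb, 142 with the nearest gene, 0 without list length, 0 with the compared groups alone, 108 without the shortest lists and 0 to 60 leaving out single libraries.

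Barhl1 in SOX2+ against SOX2- was 0.39 with the higher-scoring part, -1.21 with 100 kb and -1.57 with 50 kb. Between the MKI67 groups it was -0.042 with the higher-scoring part, -0.15 with 100 kb, -0.19 with 50 kb and -0.090 with the nearest gene. For SOX2+/MKI67+ against SOX2- it was -1.75 with 100 kb and -2.37 with 50 kb. Its call in SOX2+/MKI67- against SOX2- was lost in 16 of 23 alternatives. The values there were -0.40 with equal peak numbers, -0.12 with the higher-scoring part, -1.27 with the nearest gene, -0.83 without list length, -1.13 with the compared groups alone, -1.11 without the shortest lists and -1.25 to -0.94 leaving out single libraries. Barhl2 between the MKI67 groups was -0.40 with those groups alone and -0.31 to 0.48 leaving out single libraries, and Atoh1 in SOX2+/MKI67+ against SOX2- was 0.033 without list length and -0.94 to 0.023 leaving out single libraries.

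Per 10000 peaks, the Atoh1 difference was -2.50 with equal peak numbers (exact permutation p = 0.0286) and -1.94 to -0.924 leaving out single libraries. That of Barhl1 was -0.713 with equal peak numbers, 1.03 with the higher-scoring part, -1.40 without the shortest lists (3 against 3, where the smallest exact p is 0.100) and -1.40 to -0.948 leaving out single libraries. That of Barhl2 was -1.07 with equal peak numbers, -1.11 with the higher-scoring part and -1.19 without the shortest lists.

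Regions exclusive to SOX2+ numbered 0 as reported and 1 when a peak had to cover most of its region, 1 with the higher-scoring part, 1 without the shortest lists and 0 to 1 leaving out single libraries. Those exclusive to SOX2- numbered 2, and 1 with the coverage rule, 1 with equal peak numbers, 0 when every library had to list them, 5 without the shortest lists and 2 to 5 leaving out single libraries. Those exclusive to SOX2+/MKI67+ numbered 3, and 1 with the coverage rule, 0 with equal peak numbers, 1 with the higher-scoring part and 3 to 5 leaving out single libraries. A lone library left in a group is assumed to vary like the others.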
